A study of Mus musculus with 8 samples.

Results

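The genes described here were 10 genes of early lymphoid cytokine signalling, taken by name from the 19573 genes that had a symbol in the RNA-seq files. They were the receptor genes Il7r, Flt3, Kit, Il2rg and Crlf2, the kinase genes Jak1 and Jak3, the transcription factor genes Stat5a and Stat5b, and Socs2, which encodes an inhibitor of cytokine signalling. For each gene, accessible chromatin was read in LSK cells, the Lin- Sca1+ cKit+ stem and progenitor cells of bone marrow, and RNA was read in pre-B cells, sorted from bone marrow as IgM- cells of the B lineage. The question was whether loss of Dido3 changed the accessibility or the RNA of these genes.

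Each assay had 2 libraries per genotype. Mutant mice were Dido1 flE16/∆E16;R26R-EYFP;iCre Vav1 (genotype "DIDO3_exon16 mutant" in the labels, Dido1∆E16 below), in which Cre removes the 3′-terminal exon 16 of Dido1 and truncates Dido3. Their littermates, Dido1 flE16/+;R26R-EYFP;iCre Vav1 ("wild type" in the labels, WT below), carried the same Vav1-iCre and EYFP alleles and kept 1 functional Dido1 allele, so the comparison is with Cre-bearing heterozygotes. All mice were on the C57BL/6 background. The paper describes the ATAC-seq and RNA-seq samples as from male mice of different ages, and its methods state matching by sex and age. Those methods give an age range for all animals, and neither they nor the labels give the age behind a single library. Vav1-iCre acts in hematopoietic cells, and each RNA-seq library came from a pool of mice, so p-values measure the spread between pools. In bulk samples fewer cells of a type and less RNA per cell cannot be told apart.

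Interleukin 7 (IL-7) signals through a receptor made of the alpha chain, encoded by Il7r, and the common gamma chain, encoded by Il2rg. The same alpha chain pairs with the product of Crlf2 to bind thymic stromal lymphopoietin, and the receptor tyrosine kinases Flt3 and Kit receive Flt3 ligand and stem cell factor on progenitors. Jak1 and Jak3 sit on the IL-7 receptor chains and phosphorylate Stat5a and Stat5b, which enter the nucleus and raise their targets, among them the Socs family genes that dampen the pathway. In the mouse, IL-7 receptor signalling is required for B-cell development in the bone marrow, and it is strong in pro-B and large cycling pre-B cells and wanes in small resting pre-B cells.

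The RNA-seq libraries were first compared with their labels. Coverage of Dido1 exon 16 was 15.3 and 10.2 reads per base in WT and 0.192 and 0.039 in Dido1∆E16, while exons 1 to 15 had 19.7 to 30.5 reads per base in all 4. Of the small pre-B markers (Rag1, Cd79a, Ebf1 and others), 7 of 8 were above 0 in every library, with summed levels of 8980 to 10770 TPM (transcript abundance scaled to an equal total in every library). Libraries differed in other cells' markers. Neutrophil and monocyte markers summed to 240.5 and 2203 TPM in WT and to 1064 and 9498 TPM in Dido1∆E16, with 7 to 9 of 10 above 0. Erythroid markers summed to 298.5, 918, 674 and 8601 TPM in the same order, with 2 to 4 of 7 above 0. Dido1∆E16 replicate 2 thus stood apart, and values without it are given below. Markers of pro-B and large pre-B cells, all 10 above 0 in every library, summed to 5801 and 6110 TPM in WT and 8921 and 7856 TPM in Dido1∆E16. Most of these sums was Vpreb3, at 4522 and 5394 TPM in WT and 5825 and 5716 TPM in Dido1∆E16 with GENCODE symbols. T and NK markers summed to at most 5.47 TPM (12.8 TPM with GENCODE symbols), with Cd3e and Cd4 at 0 in all libraries. Mast cell and basophil markers summed to 0, 0, 0.25 and 1.72 TPM, and with GENCODE symbols to 0 and 2.14 TPM in WT and 2.77 and 11.85 TPM in Dido1∆E16. Dendritic cell markers summed to 43.8 to 80.9 TPM and mature B markers to 1219 to 1462 TPM. Markers of LSK cells and progenitors, a list that holds Kit and Flt3, summed to 5.28 and 0.335 TPM in WT and 12.6 and 10.6 TPM in Dido1∆E16 by the authors' symbols. Without Kit and Flt3 they summed to 3.10 and 0 TPM in WT and at most 1.69 TPM in Dido1∆E16, and the genotypes overlapped. GENCODE symbols were then added to transcripts without a symbol. The whole list, with Kit and Flt3, then summed to 27.7 and 20.1 TPM in WT and 18.7 and 10.6 TPM in Dido1∆E16. The order of the genotypes thus turned for the whole list. Without Kit and Flt3 the sums with GENCODE symbols were 25.44 and 19.51 TPM in WT and at most 7.797 TPM in Dido1∆E16.

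In LSK cells, the locus pattern shared by both peak callers was at Il7r and Il2rg, the genes of the IL-7 receptor chains. Neither had a called peak in a Dido1∆E16 library by either caller, and both had a promoter peak in each WT library. Over all genes with a promoter peak in both WT libraries, 14.9% by MACS2 and 8.21% by HOMER had none in Dido1∆E16. At equal numbers of MACS2 peaks from each library, Il7r alone of the 10 genes had fewer. In pre-B cells the RNA of Il7r and Il2rg was abundant in all 4 libraries. Socs2 RNA was 7.36-fold higher in Dido1∆E16 pre-B cells on the TPM + 1 scale, the largest difference of the 10 genes at this pseudocount (at 0.1 the log2 fold change was 2.97 for Socs2 and 3.48 for Kit), and Kit, Crlf2 and Stat5a RNA was also higher in both Dido1∆E16 libraries. None of these RNA differences passed the test adjusted over all genes.

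In Omni-ATAC-seq of LSK cells a transposase cuts open chromatin, and a peak is a region where cuts accumulate. The libraries held 10249256 and 52050898 tags in WT and 22533077 and 44633938 tags in Dido1∆E16. MACS2 had called 27352 and 57739 peaks in WT and 13208 and 16329 in Dido1∆E16, so that peak number did not follow the number of tags between genotypes. Annotated to the 10 genes were 27 and 54 MACS2 peaks in WT and 16 and 15 in Dido1∆E16. The means of 40.5 and 15.5 peaks differed by -25.0 (exact two-sided permutation test, p = 0.333, the smallest p that 2 against 2 libraries allow). As a share of each library's peaks these were 0.0987% (95% Clopper-Pearson interval, 0.0651 to 0.144%), 0.0935% (0.0703 to 0.122%), 0.121% (0.0693 to 0.197%) and 0.0919% (0.0514 to 0.152%), and the intervals, which cover counting error only, overlapped. When each library contributed its 13208 best-scoring peaks, the counts were 10 and 14 in WT and 16 and 12 in Dido1∆E16, and the difference turned to 2.0 (p = 0.667, exact permutation test). The lower number of peaks at these genes therefore moved with the lower number of peaks in the libraries as a whole.

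Of the 10 genes, 5 had MACS2 counts in each Dido1∆E16 library that were under both WT counts (Il7r, Flt3, Il2rg, Crlf2 and Jak1), against 35.6% of all genes with a peak. With HOMER peaks 2 genes did (Il7r and Il2rg), against 19.5% of all genes. No gene of the 10 had more peaks in both Dido1∆E16 libraries by either caller. At equal numbers of peaks from each library, Il7r alone had fewer, where 7.16% of all genes did, and 1 of the 10 genes had more, where 6.57% did. A promoter peak in both WT libraries was annotated to 6 of the 10 genes by MACS2 and to 8 by HOMER. Of these, Il7r and Il2rg had none in either Dido1∆E16 library by each caller, against 14.9% of the genes with such a peak by MACS2 and 8.21% by HOMER.

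**Figure D1:**
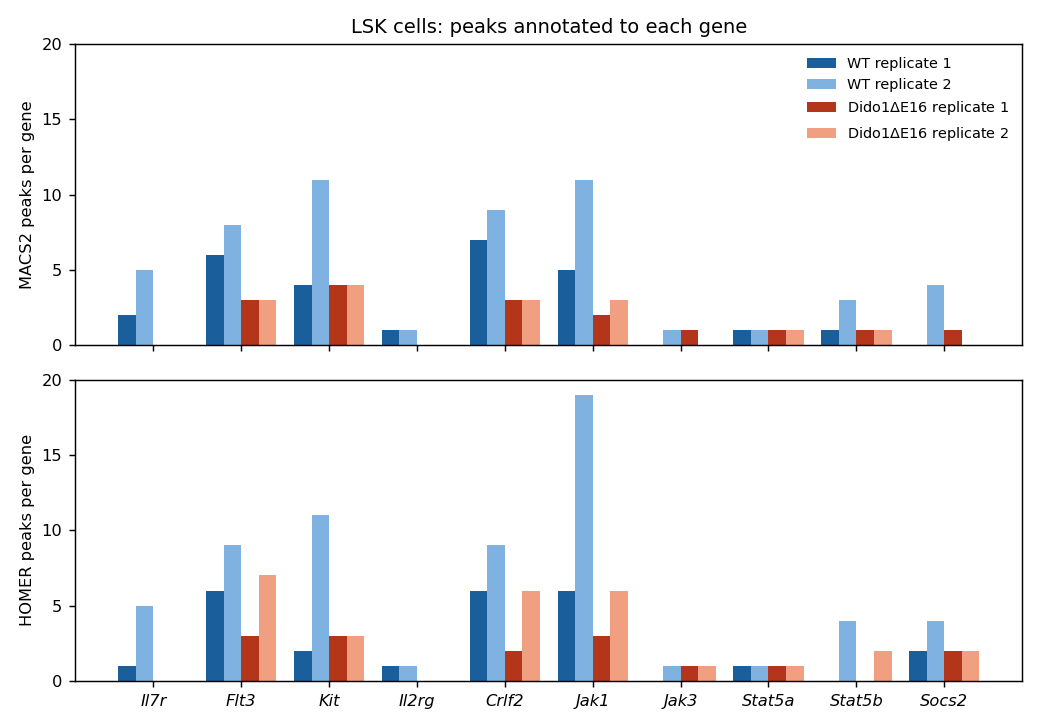
Number of peaks annotated to each of the 10 genes in every LSK library, for MACS2 peaks (top) and HOMER peaks (bottom). Bars are single libraries, WT in blue and Dido1∆E16 in red. Il7r and Il2rg have bars in WT only in both panels, while Stat5a has 1 peak in every library.

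Merged over the libraries, the MACS2 peaks of the 10 genes formed 54 regions. Of these, 26 were present in both WT libraries, 11 in both Dido1∆E16 libraries and 9 in all 4, 37 were present in WT only and 0 in Dido1∆E16 only. No Dido1∆E16 peak overlapped 15 of the 26 regions shared by the WT libraries (57.7%), against 43.1% of such regions over all genes. By HOMER, 7 of 25 were without a Dido1∆E16 peak (28.0%, against 27.4% over all genes), and HOMER peaks formed 7 regions in Dido1∆E16 only. The share at the 10 genes was thus above that of all genes with MACS2 and near it with HOMER.

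Il7r, the gene of the IL-7 receptor alpha chain (chr15:9506159-9529876, mm10, minus strand), had 2 and 5 MACS2 peaks in the WT libraries and 0 in each Dido1∆E16 library. HOMER gave 1, 5, 0 and 0. The promoter region, chr15:9529674-9530045, had MACS2 scores of 49 and 154 in WT, where the score ranks peaks within a library and is not scaled between libraries. The other region shared by the WT libraries, chr15:9571766-9572296, lay in intergenic DNA 42.2 kb before the start, with scores of 33 and 31. WT replicate 2 alone had 3 more regions, 3.82, 45.0 and 47.6 kb before the start, the last annotated as downstream of a gene. The authors' list of regions with a difference in tags contained the Il7r promoter (chr15:9529729-9530043), at 5.18 and 5.11 log2 tags in WT and 3.87 and 4.20 in Dido1∆E16, a difference of -1.11. That region was listed because of its difference, so it is given as a value, and tags were present in the Dido1∆E16 libraries although no peak was called. IL-7 receptor protein was absent by the gate that the study gives for LSK cells, which holds for both genotypes.

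Il2rg, the gene of the common gamma chain (chrX:101264385-101268255, minus strand), had a single region, over its promoter (chrX:101268080-101268808). It was a peak in both WT libraries, with MACS2 scores of 28 and 79, and in neither Dido1∆E16 library. HOMER gave the same presence, 1, 1, 0 and 0. Il2rg was in neither of the authors' lists of differing regions.

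The promoters of these IL-7 receptor genes are printed with that of Flt3, whose promoter region was called in all 4 libraries, from 250 bases before to 50 bases after the start (RefSeq, GRCm38.p6, which is mm10). RefSeq promoters were at hand for 9 of the 10 genes. Capitals mark matches to the letters TTCNNNGAA (a Stat core) and TGTGGT (a Runx core), searched on both strands. GAGGAA (a form of Ets site) and CAGGTG (an E-box) were also searched and are in none of these 3. Other forms of Ets site were not searched, so these promoters are not shown to lack one. The first sequence is Il7r, chr15:9529827-9530126, the second Il2rg, chrX:101268206-101268505, and the third Flt3, chr5:147400440-147400739, all read along the minus strand.
Il7r: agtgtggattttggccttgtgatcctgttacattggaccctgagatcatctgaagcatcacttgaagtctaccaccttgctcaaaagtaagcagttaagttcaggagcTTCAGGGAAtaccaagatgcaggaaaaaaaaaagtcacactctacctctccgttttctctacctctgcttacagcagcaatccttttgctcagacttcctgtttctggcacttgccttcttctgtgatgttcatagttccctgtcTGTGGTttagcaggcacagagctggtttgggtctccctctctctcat
Il2rg: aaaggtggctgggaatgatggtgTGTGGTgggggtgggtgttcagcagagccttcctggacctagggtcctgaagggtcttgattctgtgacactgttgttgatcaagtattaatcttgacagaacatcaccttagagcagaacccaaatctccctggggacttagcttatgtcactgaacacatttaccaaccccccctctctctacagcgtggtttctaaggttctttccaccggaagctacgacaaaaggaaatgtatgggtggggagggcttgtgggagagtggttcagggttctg
Flt3: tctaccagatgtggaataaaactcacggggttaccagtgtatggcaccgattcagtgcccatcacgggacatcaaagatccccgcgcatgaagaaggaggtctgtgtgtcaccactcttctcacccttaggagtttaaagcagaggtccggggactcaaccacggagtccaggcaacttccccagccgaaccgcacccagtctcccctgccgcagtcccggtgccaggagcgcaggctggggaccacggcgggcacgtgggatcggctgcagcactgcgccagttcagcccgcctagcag

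The Il7r promoter held 1 match to the Stat core, 142 bases before the start, and 1 to the Runx core, after the start. Of 32817 RefSeq promoters of this length, 8.29% held the Stat core and 16.8% the Runx core, so matches of this kind are common, and the other 8 genes' promoters with a RefSeq entry held no Stat core. Il2rg held 1 Runx core, 227 bases before the start, and Flt3 held none of the 4 motifs. In the MACS2 peaks, 165 and 219 of the 300 Il7r bases were covered in the WT libraries and 0 in both Dido1∆E16 libraries. For Il2rg the covered bases were 177, 300, 0 and 0. For Flt3 they were 283 and 292 in WT and 94 and 46 in Dido1∆E16, so the MACS2 peak was in all libraries and covered fewer of these bases in Dido1∆E16. The HOMER peak over the Flt3 promoter was 505 and 829 bases wide in WT and 354 and 932 in Dido1∆E16. Its width thus overlapped between the genotypes. The Runx core was not particular to Il7r and Il2rg, and also had 1 match in the promoters of Crlf2 and of the upstream start of Stat5a. GAGGAA, held by 28.3% of all promoters, had 1 match in the promoters of Kit, Crlf2 and the downstream start of Stat5a, and CAGGTG, held by 20.2%, 1 match in that of the upstream start of Stat5a.

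**Figure D2:**
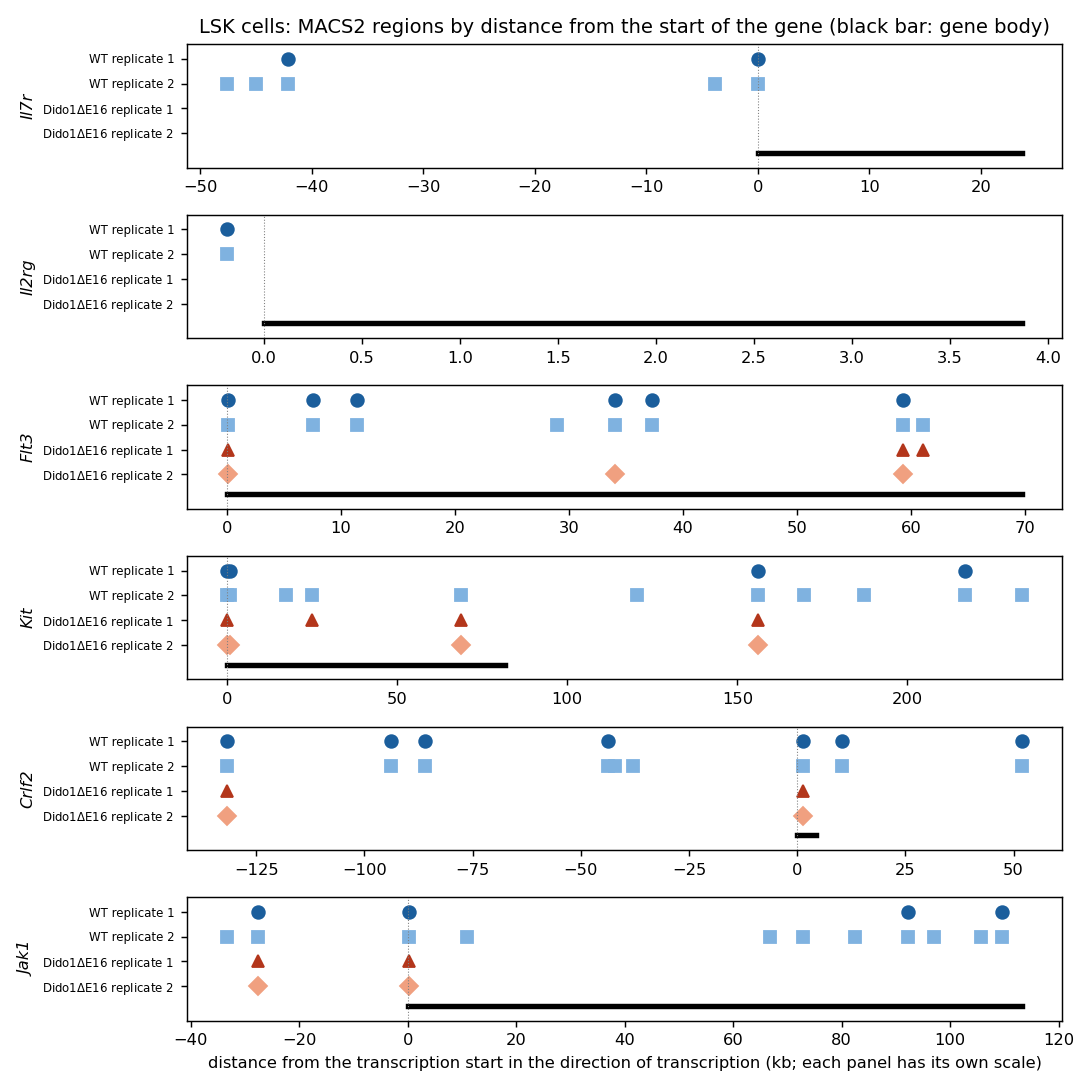
MACS2 regions in LSK cells by the distance of their centre from the start of the gene, in kb along the direction of transcription, for Il7r, Il2rg, Flt3, Kit, Crlf2 and Jak1. Each symbol is a region called in that library, circles and squares for WT and triangles and diamonds for Dido1∆E16, the black bar is the gene, and each panel has its own scale. The rows of Dido1∆E16 are empty for Il7r and Il2rg and keep the start of the gene for Flt3, Kit and Jak1 and, for Crlf2, a region centred 1.23 kb inside the gene.

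Flt3, the gene of a receptor tyrosine kinase of early progenitors (chr5:147330742-147400489, minus strand), had 6 and 8 MACS2 peaks in WT and 3 in each Dido1∆E16 library, and 6, 9, 3 and 7 by HOMER. The promoter region had scores of 67 and 163 in WT and 48 and 38 in Dido1∆E16. A region over exon 20 was also called in all 4 libraries, with scores of 85, 122, 44 and 11. Regions 7.58, 11.4 and 37.2 kb after the start, in introns 1, 1 and 9, were in both WT libraries and in neither Dido1∆E16 library by MACS2, and the region 34.1 kb after it, in intron 9, was also in Dido1∆E16 replicate 2. By HOMER the region 37.2 kb after the start was in Dido1∆E16 replicate 2 too. The promoter was in the authors' list, with 7.44 log2 tags in each WT library, 6.72 in Dido1∆E16 replicate 1 and 6.73 in replicate 2.

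Kit, the gene of the stem cell factor receptor (chr5:75574987-75656721, plus strand), encodes a protein by which LSK cells were gated, and its peaks did not separate the genotypes. MACS2 gave 4 and 11 peaks in WT and 4 in each Dido1∆E16 library, and HOMER gave 2, 11, 3 and 3. The promoter region was in all 4 libraries, with MACS2 scores of 28, 102, 50 and 17, as was a region 156 kb after the start, chr5:75730505-75731376, with scores of 45, 106, 24 and 20, which HOMER did not call in Dido1∆E16 replicate 1. Of the 4 MACS2 regions shared by the WT libraries, the 1 without a Dido1∆E16 peak lay at chr5:75791614-75792121. The authors' list held 2 intergenic regions near Kit, with differences of -0.80 and -0.77 log2 tags, and not its promoter.

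Crlf2, the gene of the receptor chain for thymic stromal lymphopoietin (chr5:109554709-109558993, minus strand), had 7 and 9 MACS2 peaks in WT and 3 in each Dido1∆E16 library, and 6, 9, 2 and 6 by HOMER. Its region 132 kb before the start, chr5:109690166-109691449, had the highest MACS2 scores of any region of the 10 genes in every library, 263 and 412 in WT and 150 and 153 in Dido1∆E16. A region of 2088 bases inside the gene, centred 1.23 kb after its start, was also called in all 4, and 0 of the 300 promoter bases lay in a MACS2 peak in any library. HOMER had a peak over the promoter in all 4 libraries. At 5 other regions called in each WT library, MACS2 called none in Dido1∆E16. Of these, HOMER called the regions 10.2 kb after and 43.8 kb before the start in Dido1∆E16 replicate 2 too. The authors' lists held the region 132 kb before the start with differences of -1.50 and -1.43 log2 tags. This region was thus called in all libraries and had fewer tags in Dido1∆E16, as nearly all regions of these lists did.

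Of the kinase genes, Jak1 (chr4:101151974-101265282, minus strand), whose product serves many cytokine receptors, had 5 and 11 MACS2 peaks in WT and 2 and 3 in Dido1∆E16, and 6, 19, 3 and 6 by HOMER. Its promoter was called in all 4 libraries, with scores of 107, 158, 64 and 71, as was a region 27.5 kb before the start. By MACS2 the regions in introns 10 and 22 were in both WT libraries and in neither Dido1∆E16 library. By HOMER the intron 22 region was in all 4 libraries and the intron 10 region was also in Dido1∆E16 replicate 2. The authors' list gave the intron 10 and 22 regions differences of -0.80 and -0.88 log2 tags. The Jak1 promoter was in both of their lists, with differences of -0.86 and -0.83, so it too had fewer tags in Dido1∆E16. Jak3 (chr8:71676383-71690577, plus strand), the kinase of the common gamma chain, had a single promoter region, called by MACS2 in WT replicate 2 and Dido1∆E16 replicate 1 and by HOMER in all libraries but WT replicate 1. Jak3 thus showed no order by genotype.

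Stat5a (chr11:100859351-100885169, plus strand) had 1 peak in every library by both callers, over its downstream promoter, with MACS2 scores of 41, 130, 55 and 26. Stat5b (chr11:100780731-100850585, minus strand) had 1, 3, 1 and 1 MACS2 peaks and 0, 4, 0 and 2 HOMER peaks. Its region over the upstream start, chr11:100850097-100850765, was called by MACS2 in WT replicate 2 and both Dido1∆E16 libraries, and by HOMER in the second library of each genotype. An intron 1 region was called in the WT libraries only by MACS2, and in the second library of each genotype by HOMER. Socs2, whose product binds cytokine receptors and limits their signalling (chr10:95411490-95416857, minus strand), had 0, 4, 1 and 0 MACS2 peaks and 2, 4, 2 and 2 HOMER peaks. A peak over the Socs2 promoter was present in WT replicate 2 and in both Dido1∆E16 libraries by MACS2, where that of Dido1∆E16 replicate 2 was annotated to a neighbouring gene, and in all 4 libraries by HOMER. Accessibility at the Stat5 and Socs2 genes thus did not separate the genotypes.

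RNA of the 10 genes was measured in pre-B cells, which arise several steps of differentiation after LSK cells. The authors' StringTie values per transcript, in TPM, were summed per gene, and log2(TPM + 1) was fitted with limma over the 9991 genes with a mean of at least 1 TPM. Fold changes on this scale understate differences of low genes. Of the 10 genes 9 were tested and 0 passed an adjusted p of 0.05 with an absolute log2 fold change of 0.6, against 0.0901% of all genes tested. At an unadjusted p of 0.05, 5 of the 9 were higher in Dido1∆E16 and 0 lower, against 7.87% and 2.86% of all genes. In all, 786 genes were higher and 286 lower at that level, or 602 and 450 after median-centring. Both Dido1∆E16 libraries were above both WT libraries for 6 of the 9 tested genes, against 26.7% of all genes, and both were below for 0. The median log2 fold change of the 9 genes was 0.39, and that of all genes 0.07. With GENCODE symbols added they were 0.63 and 0.07.

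**Figure D3:**
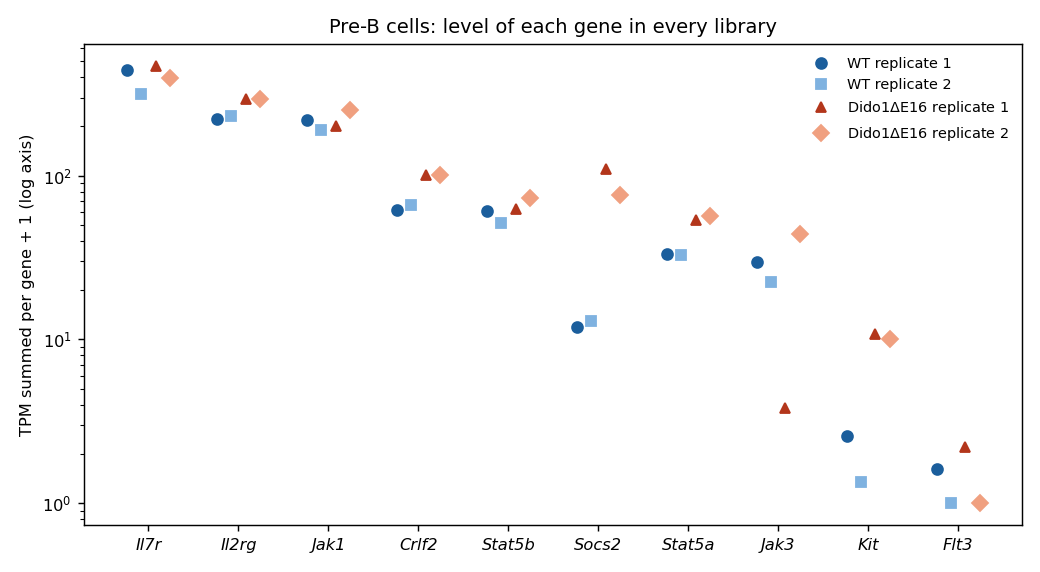
Level of each of the 10 genes in every pre-B library, as TPM summed per gene plus 1 on a log axis, ordered by mean level. Circles and squares are WT libraries, triangles and diamonds Dido1∆E16 libraries. Il7r is highest at 313.4 to 468.1 TPM, Flt3 is at 0 in 1 library of each genotype, and the genotypes are far apart for Socs2 and Kit.

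By mean level over the 4 libraries the order was Il7r (403.8 TPM), Il2rg (260.0), Jak1 (214.7), Crlf2 (81.7), Stat5b (60.6), Socs2 (51.6), Stat5a (43.0), Jak3 (24.1), Kit (5.17) and Flt3 (0.458). The ranges of the libraries overlapped between Il2rg and Jak1 and between every pair of neighbours from Crlf2 down to Flt3, so that these means do not order them with certainty. Library by library, Il2rg was above Jak1 and Crlf2 above Stat5b in all 4, while Socs2 was below Stat5a in both WT libraries and above it in both Dido1∆E16 libraries. The ranges of Il7r and Il2rg, and of Jak1 and Crlf2, did not overlap. Il7r RNA was above that of 97.3% of the genes tested, Il2rg above 94.8% and Jak1 above 93.4%, while Kit was above 17.4%.

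Il7r RNA was 441.8 and 313.4 TPM in WT and 468.1 and 391.8 TPM in Dido1∆E16. The groups overlapped, and WT replicate 2 was lowest. The log2 fold change was 0.20 ± 0.22 (SE), with a 95% interval of -0.43 to 0.83 and an adjusted p of 0.771 by limma. Without WT replicate 2 it was -0.04. The level of Il7r was therefore not distinguished between the genotypes, and a difference of up to 0.83 log2 units lay within the interval. Il2rg RNA was 220.6 and 230.1 TPM in WT and 294.9 and 294.5 TPM in Dido1∆E16. Both Dido1∆E16 libraries were above both WT libraries, with a gap larger than the spread within either genotype. The log2 fold change was 0.39 ± 0.10 (95% interval, 0.11 to 0.67, adjusted p = 0.384).

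Crlf2 RNA was 61.1 and 65.1 TPM in WT and 100.5 and 99.95 TPM in Dido1∆E16. The groups did not overlap, and the log2 fold change was 0.66 ± 0.11 (0.34 to 0.99, adjusted p = 0.275). StringTie divided this gene's reads between 2 transcripts unevenly among libraries, and with the most abundant transcript alone the log2 fold change was 0.22. Flt3 RNA was at 0.623 and 0 TPM in WT and 1.21 and 0 TPM in Dido1∆E16. It was under the minimum of 1 TPM, was not tested, and was hardly detected in pre-B cells of either genotype.

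Kit RNA was 1.55 and 0.335 TPM in WT and 9.74 and 9.06 TPM in Dido1∆E16. The libraries of each genotype lay close together beside the gap between them, with a log2 fold change of 2.49 ± 0.48 (1.15 to 3.84, adjusted p = 0.289). Coverage over the Kit exons was 0.623 and 0.144 reads per base in WT and 3.97 and 2.63 in Dido1∆E16, so that the WT values rest on few reads. Kit is a marker of progenitors and pro-B cells. The pro-B and large pre-B markers without Kit and Il7r summed to 5358 and 5797 TPM in WT and 8443 and 7455 TPM in Dido1∆E16, and mast cell and basophil markers, with GENCODE symbols, to 0, 2.14, 2.77 and 11.85 TPM, where Mcpt8 gave 10.1 TPM of Dido1∆E16 replicate 2. The part of these cells in the Kit values was not tested.

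Jak1 RNA was 218.6 and 190.2 TPM in WT and 200.4 and 249.4 TPM in Dido1∆E16. The groups overlapped, with a log2 fold change of 0.13 ± 0.17 (-0.34 to 0.60, adjusted p = 0.804), and without Dido1∆E16 replicate 2 it was -0.02. Jak3 RNA was 28.7 and 21.5 TPM in WT and 2.81 and 43.3 TPM in Dido1∆E16 by the authors' symbols. The Dido1∆E16 libraries were the lowest and the highest, and the log2 fold change was -0.99 ± 1.30 (-4.68 to 2.69, adjusted p = 0.813). In Dido1∆E16 replicate 1, 32.3 TPM lay in a full-length Jak3 transcript (71676383 to 71690577) that carried no symbol in the authors' tables. With symbols from GENCODE added to such transcripts, an alternative chosen after seeing the data, Jak3 was at 28.7, 21.5, 35.1 and 43.3 TPM, and the log2 fold change was 0.63 ± 0.23 (0.01 to 1.24, adjusted p = 0.421). Aligned bases over the Jak3 exons, which do not depend on how reads were divided among transcripts, were 31.7 and 24.5 per megabase aligned in WT and 52.2 and 51.1 in Dido1∆E16. On both of these measures the Dido1∆E16 libraries were above the WT libraries.

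Stat5a RNA was 32.2 and 31.8 TPM in WT and 52.7 and 55.35 TPM in Dido1∆E16. The replicates of each genotype lay close together beside the gap between the genotypes, and the log2 fold change was 0.74 ± 0.13 (0.37 to 1.11, adjusted p = 0.275). Stat5b RNA was 59.5 and 50.2 TPM in WT and 61.3 and 71.6 TPM in Dido1∆E16. The groups did not overlap but nearly met, with a log2 fold change of 0.27 ± 0.17 (-0.20 to 0.74, adjusted p = 0.667). Stat5a and Stat5b are close copies, and 608 stretches of 50 bases occur in both, 15.8% of those of Stat5a and 11.7% of those of Stat5b, so a part of their reads could be assigned to either. No other pair of the 10 genes shared such a stretch. Nearly all Stat5b RNA was assigned to the transcript with the downstream start (49.7 to 69.6 TPM), and at most 2.11 TPM to that with the upstream start. Exon 1 of the transcript with the downstream start had 1.46 to 1.81 reads per base, against 15.4 to 46.0 in its exon 2. The assignment therefore does not show which start was used.

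Socs2 RNA was 10.9 and 11.9 TPM in WT and 108.5 and 75.1 TPM in Dido1∆E16. Both Dido1∆E16 libraries were far above both WT libraries, and differed from each other more than the WT libraries did. The log2 fold change was 2.88 ± 0.24 (2.20 to 3.56), a fold of 7.36 on the TPM + 1 scale, with an unadjusted p of 0.000356, an adjusted p of 0.142 by limma and a p of rank 25 among the 9991 genes. Coverage over the Socs2 exons was 2.32 and 2.25 reads per base in WT and 27.2 and 11.8 in Dido1∆E16. Reads were divided among 3 Socs2 transcripts in different ways in each library, and with the most abundant transcript alone the log2 fold change was 4.28. The adjusted p was between 0.0654 and 0.441 over 13 alternatives.

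**Figure D4:**
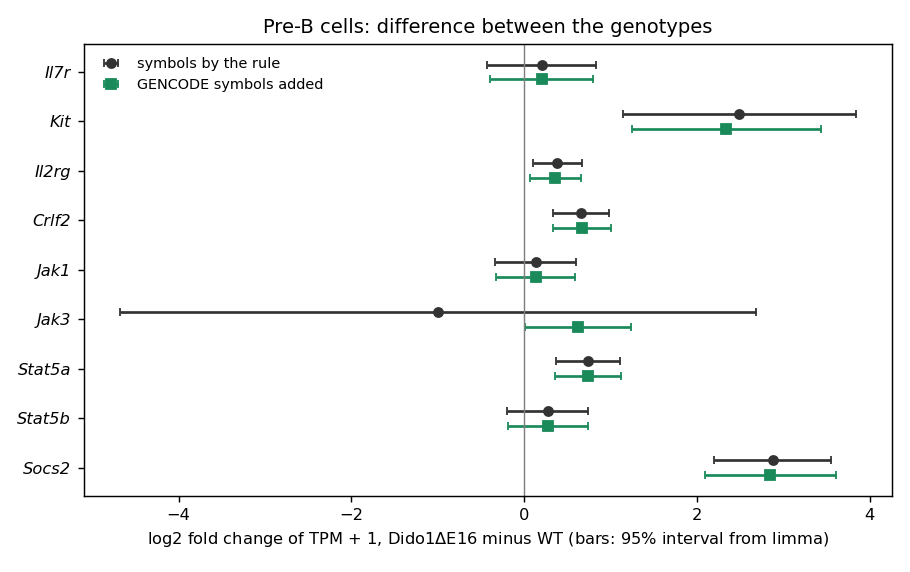
Difference in RNA between Dido1∆E16 and WT pre-B cells for the 9 genes tested, as log2 fold change of TPM + 1 with the 95% interval from limma, by the authors' symbols (circles) and with GENCODE symbols added (squares). The intervals of Kit, Il2rg, Crlf2, Stat5a and Socs2 lie above 0 in both, those of Il7r, Jak1 and Stat5b cross 0, and Jak3 moves from -0.99 with a wide interval to 0.63. The intervals are for single genes and are not adjusted over the 9991.

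Without Dido1∆E16 replicate 2, the library with the most neutrophil and erythroid RNA, the log2 fold changes were 0.33 for Il7r, 2.54 for Kit, 0.39 for Il2rg, 0.66 for Crlf2, 0.70 for Stat5a, 0.16 for Stat5b and 3.14 for Socs2. The differences of Kit, Il2rg, Crlf2, Stat5a and Socs2 were thus of about the same size without it. Jak3, by the authors' symbols, was at -2.76 without Dido1∆E16 replicate 2 and at 0.77 without Dido1∆E16 replicate 1, in which its RNA lay in the transcript without a symbol.

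The other genes of the pathway were read in lists of receptor chains, ligands, kinases and Stat factors, inhibitors and targets. No gene of any list passed the adjusted test. The counts at an unadjusted p of 0.05 that follow stand beside 7.87% higher and 2.86% lower among all genes tested. Among 6 other receptor chains of the common gamma family, 4 were tested, 0 were under that p, and the median log2 fold change was -0.01. Il21r, the interleukin 21 receptor, had the highest fold change, at 91.8 and 140.1 TPM in WT and 121.5 and 120.9 TPM in Dido1∆E16 (log2 fold change 0.09). Il15ra, the interleukin 15 receptor alpha chain, was at 13.5 and 12.9 TPM in WT and 11.9 and 6.98 TPM in Dido1∆E16 (-0.48). Among 6 ligands 2 were tested, with a median of 0.04. Il15, interleukin 15, was at 8.97 and 13.1 TPM in WT and 20.3 and 20.4 TPM in Dido1∆E16 (0.85, adjusted p = 0.420), and Flt3l, the Flt3 ligand, at 39.4 and 53.0 TPM in WT and 30.8 and 22.4 TPM in Dido1∆E16 (-0.78, adjusted p = 0.444). These 2 ligands were the only ones under the unadjusted p of 0.05, and lay on opposite sides. Il7 was at 0 in all 4 libraries, and IL-7 is made by stromal cells.

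Il9r, which encodes the interleukin 9 receptor chain that pairs with the common gamma chain, was at 0 in all 4 libraries by the authors' symbols. Its reads lay in transcripts without a symbol, and with GENCODE symbols added it was at 1.68 and 0.876 TPM in WT and 48.6 and 64.7 TPM in Dido1∆E16. Both Dido1∆E16 libraries were far above both WT libraries, with a log2 fold change of 4.67 ± 0.31 and an unadjusted p of 8.28e-05, and the adjusted p by limma over 11849 genes was 0.0892. With these symbols 1 of 5 receptor chains tested was under an unadjusted p of 0.05.

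Of 7 other Jak and Stat genes 5 were tested, 0 were under the unadjusted p of 0.05 and the median log2 fold change was 0.08 (7 tested and 0.28 with GENCODE symbols added). Jak2, a kinase of several kinds of cytokine receptor, was at 43.1 and 33.2 TPM in WT and 44.8 and 56.4 TPM in Dido1∆E16 (0.40). Tyk2, the kinase of interferon receptors, was at 1.36 to 2.81 TPM by the authors' symbols (-0.25) and at 41.3 and 37.3 TPM in WT and 48.9 and 46.9 TPM in Dido1∆E16 with GENCODE symbols (0.28). With the added symbols Stat4 had the highest fold change of this list, at 12.6 and 5.64 TPM in WT and 17.0 and 18.0 TPM in Dido1∆E16 (0.96), and Stat2 the lowest, at 74.4 and 59.6 TPM in WT and 60.1 and 64.0 TPM in Dido1∆E16 (-0.10).

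Of 19 inhibitors of Jak-Stat signalling 14 were tested, 2 were higher and 0 lower at the unadjusted p of 0.05 (7.87% and 2.86% of all genes), and the median was 0.16. With GENCODE symbols 19 were tested, 2 were higher and 1 lower, and the median was 0.05. The genes that were higher were Cish and Socs3 by the authors' symbols, and Cish and Socs5 with GENCODE symbols (Socs3, p = 0.0823 by limma). Socs3, which inhibits receptors of the interleukin 6 family, was at 0 in both WT libraries and at 5.73 and 2.95 TPM in Dido1∆E16 (adjusted p = 0.355), and with GENCODE symbols WT replicate 2 was at 1.97 TPM. Pias3, an inhibitor of Stat3, was at 39.7 and 32.2 TPM in WT and 28.8 and 28.3 TPM in Dido1∆E16 (-0.31). Cblb, a ubiquitin ligase, had the lowest fold change with GENCODE symbols, at 81.9 and 79.3 TPM in WT and 65.3 and 57.9 TPM in Dido1∆E16 (-0.38, adjusted p = 0.415). Cish is described with the targets.

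Of 11 genes known to be raised by Stat5 or the IL-7 receptor, all were tested, 4 were higher and 0 lower at the unadjusted p of 0.05 (7.87% of all genes were higher), and the median log2 fold change was 0.24. The 4 genes, named after their values were seen, were Ccnd2, Pim2, Cish and Osm. Ccnd2, cyclin D2, was at 8.56 and 6.85 TPM in WT and 36.1 and 27.1 TPM in Dido1∆E16 (1.90, adjusted p = 0.258). Pim2, a survival kinase, was at 336.4 and 365.4 TPM in WT and 543.6 and 542.1 TPM in Dido1∆E16 (0.63, adjusted p = 0.271). Cish, a Socs family inhibitor, was at 2.77 and 3.06 TPM in WT and 9.50 and 6.59 TPM in Dido1∆E16 (1.19, adjusted p = 0.398). Osm, oncostatin M, was at 9.45 and 10.7 TPM in WT and 18.6 and 17.7 TPM in Dido1∆E16 (0.79, adjusted p = 0.377). In each of these genes both Dido1∆E16 libraries were above both WT libraries. By the list's rule, Ccnd3, cyclin D3, had the highest fold change, at 36.0, 15.9, 34.8 and 320.1 TPM (2.104, adjusted p = 0.659), which rested on Dido1∆E16 replicate 2. With GENCODE symbols Ccnd3 was at 891.1 and 569.2 TPM in WT and 915.8 and 941.9 TPM in Dido1∆E16 (0.38). Bcl2, a survival factor, had the lowest fold change, at 2.89 and 4.30 TPM in WT and 1.80 and 0.516 TPM in Dido1∆E16 (-1.14, adjusted p = 0.579).

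Of 6 genes listed as lowered by Stat5 or the IL-7 receptor, all were tested, 1 was higher and 0 lower at the unadjusted p of 0.05, and the median was 0.03. The 1 that was higher was Igll1. Its place in this list is doubtful, since it marks pro-B and large pre-B cells, in which IL-7 receptor signalling is strong. Igll1, which encodes the lambda5 chain of the pre-B-cell receptor, was at 112.1 and 34.4 TPM in WT and 424.0 and 251.8 TPM in Dido1∆E16 (2.37, adjusted p = 0.402). Irf4, a factor of the small pre-B stage, was at 478.3 and 627.9 TPM in WT and 441.6 and 369.0 TPM in Dido1∆E16 (-0.44). Igll1 also marks pro-B and large pre-B cells, as do Vpreb1, at 108.3 and 40.9 TPM in WT and 1222 and 737.9 TPM in Dido1∆E16 (3.81, adjusted p = 0.258), and Vpreb2, at 27.1 and 8.76 TPM in WT and 382.3 and 167.7 TPM in Dido1∆E16 (3.94, adjusted p = 0.275). These surrogate light chain genes were higher in the same libraries as Kit, Socs2 and Ccnd2. In the same marker list, with GENCODE symbols, Dntt, Spn and Vpreb3 were also higher in both Dido1∆E16 libraries, Vpreb3 by only 0.22 log2 units. Il7r, Il2ra and Mki67, a marker of cycling cells, overlapped between the genotypes. Mki67 was at 227.9 and 25.0 TPM in WT and 86.3 and 139.0 TPM in Dido1∆E16. The gate given for this sort does not use CD43, by which the study's flow cytometry parts pro-B from pre-B cells, and the part of the mix of stages in these values was not tested.

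**Figure D5:**
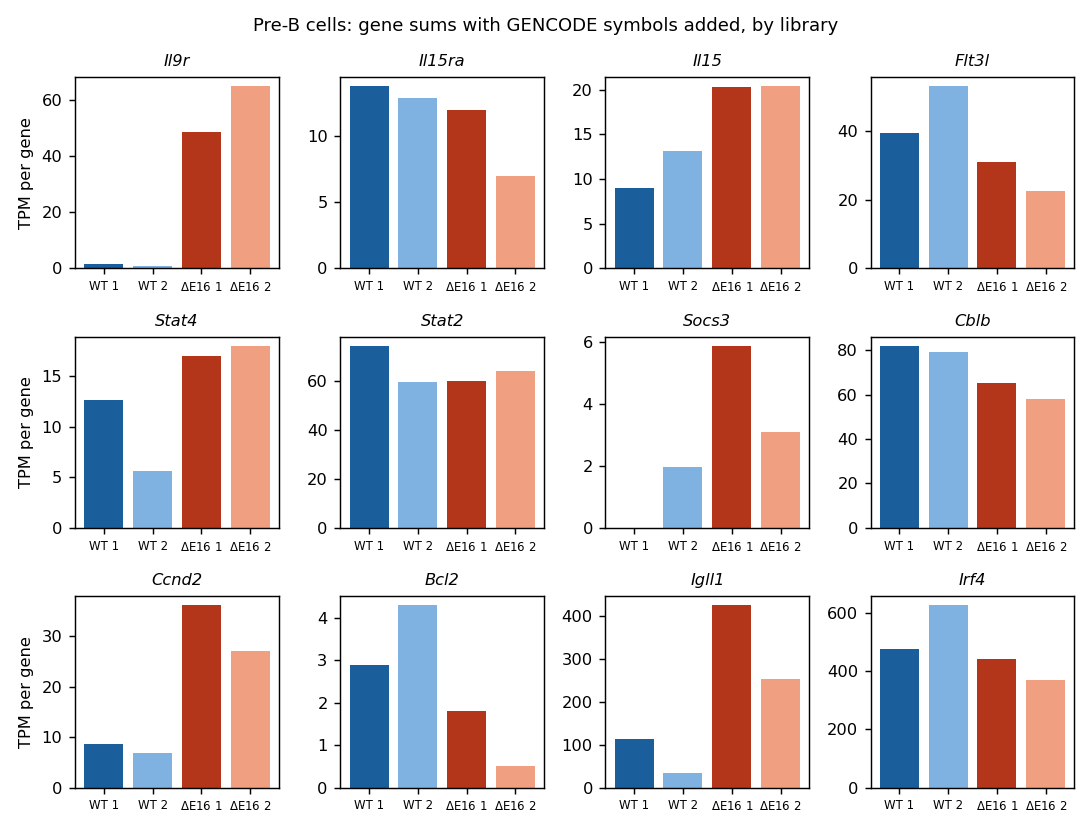
TPM per gene in each pre-B library, with GENCODE symbols added, for the genes with the highest and the lowest fold change of each pathway list. Bars are single libraries, WT in blue and Dido1∆E16 in red, and each panel starts at 0 with its own scale. Il9r, Il15, Stat4, Socs3, Ccnd2 and Igll1 are higher in each Dido1∆E16 library than in either WT library, and Flt3l, Il15ra, Cblb, Bcl2 and Irf4 lower.

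The values of the assays are set side by side here, although they come from different cells. Il7r and Il2rg had no called peak in either Dido1∆E16 LSK library, and their pre-B RNA was 391.8 to 468.1 TPM and 294.5 to 294.9 TPM in the Dido1∆E16 libraries. By MACS2, each Dido1∆E16 LSK library held fewer peaks of Crlf2 and of Jak1 than each WT library, while by HOMER Dido1∆E16 replicate 2 had as many as WT replicate 1, with 6 for each gene. Their pre-B RNA was higher in both Dido1∆E16 libraries for Crlf2 and overlapped for Jak1. Stat5a had the same single promoter peak in all LSK libraries and higher RNA in both Dido1∆E16 pre-B libraries. Flt3 kept its promoter region in LSK cells and had little or no RNA in pre-B cells of either genotype.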

How the data were processed

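Omni-ATAC-seq of LSK cells and RNA-seq of pre-B cells were analysed, with 2 WT and 2 Dido1∆E16 libraries per assay as the labels give them. The methods speak of 3 replicates in places, and the labelled libraries were used.

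For RNA-seq the authors ran StringTie on UCSC known genes (mm10) after BWA 0.7.15. The deposited values are coverage per exon and TPM, FPKM and coverage of each transcript, and no counts. For ATAC-seq the authors removed duplicates, ran MACS2 and HOMER on each library, and annotated the peaks with ChIPseeker (promoter 1000 bases before to 200 after the start). In the deposited MACS2 files each peak has a score, and the HOMER score is constant and was not used. The authors' deposited lists of regions with a difference give log2 tag counts per library, and were read as descriptions only. Other deposited values, such as positions, widths and tag totals, were used as given. The fold changes and p-values of the authors' own comparisons were not used.

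Of 63753 transcripts, 30124 had a symbol in the authors' annotation and edgeR tables, and these held 74.96% to 76.74% of the TPM. TPM was summed per gene, with a minimum mean of 1 TPM and a pseudocount of 1. The sums were fitted by genotype with limma 3.58.1 in R 4.3.3 (eBayes with a trend), with Benjamini-Hochberg adjustment over all genes. Genes were called at an absolute log2 fold change of 0.6 or more with an adjusted p under 0.05. Peaks were counted by symbol and compared in Python, from 1 base of overlap. Exons of the transcripts were matched to GENCODE exons with bedtools 2.31.1. Aligned bases per library, from coverage, were 1580.6 and 1120.6 megabases in WT and 1635.1 and 1173.4 in Dido1∆E16. Tables were made in Python 3.11.15 (numpy 2.4.6, pandas 2.3.3, matplotlib 3.10.9, scipy 1.17.1). The fit and the overlap rules were tested on simulated data.

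The genes, pathway and marker lists and tests were chosen with earlier results of these data known. Every one of the 10 genes is named, and of each pathway list the genes with the highest and lowest fold change, plus those said to be named after their values were seen. Alternatives were a pseudocount of 0.1, no filter, median-centring, FPKM, no trend, a replicate block, the most abundant transcript, no immunoglobulin transcripts, a stricter threshold, leaving out each library, HOMER peaks, an overlap of 50%, the same number of peaks and the better-scoring 50% of peaks. GENCODE symbols for transcripts without a symbol, by at least 50% of exonic bases, were added after seeing the data.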

Additional observations from a re-analysis of the deposited data

Results flagged for a closer look

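Transcripts without a symbol in the authors' tables, outside the sums by symbol, held more RNA of several genes of the pathway in a Dido1∆E16 library than in any WT library. For Il9r these transcripts held 1.68 and 0.876 TPM in WT and 48.6 and 64.75 TPM in Dido1∆E16. For Socs1, an inhibitor of Jak kinases, they held 14.8 and 14.8 TPM in WT and 34.63 and 32.7 TPM in Dido1∆E16, beside 134.6 to 144.8 TPM in WT and 118.9 to 130.1 TPM in Dido1∆E16 in transcripts with a symbol, and the sum of both did not separate the genotypes (log2 fold change 0.03). For Jak3 they held 32.27 TPM in Dido1∆E16 replicate 1 and 0 in the other libraries. For Socs2 they held 0 and 1.54 TPM in WT and 8.186 and 0 TPM in Dido1∆E16. In Dido1∆E16 replicate 2 they held 55.93 TPM for Mcl1, against at most 0.080 TPM in the other libraries, 12.72 TPM for Rag1, against at most 0.333 TPM, and 30.15 TPM for Socs5, against at most 5.16 TPM. In Jak3, Mcl1 and Rag1 a single library thus held nearly all of it. How StringTie divided the reads among the transcripts was not tested.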

How the results depend on the processing

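No one of the 9 genes tested passed the adjusted test under any of the alternatives run. Of 117 log2 fold changes of these genes under alternatives, 113 kept their direction. The 4 that did not were Il7r without WT replicate 2 (-0.045, range -0.045 to 0.45 over the libraries left out), Jak1 without Dido1∆E16 replicate 2 (-0.025, range -0.025 to 0.29), and Jak3 with GENCODE symbols added (0.63) and without Dido1∆E16 replicate 1 (0.77, range -2.76 to 0.77). Calls over all genes depended on the setting. There were 9 as reported, 0 with a pseudocount of 0.1 (1063 genes under an unadjusted p of 0.05), 0 without a filter (1244 genes), 0 at the stricter threshold, 69 without a trend and 16 with the most abundant transcript. Leaving out 1 library gave 0 to 264 calls, 0 without either WT library (2057 and 1367 genes under an unadjusted p of 0.05), 264 without Dido1∆E16 replicate 1 and 259 without Dido1∆E16 replicate 2, where the lone sample is assumed to vary like the others. With the replicate number as a block there were 0 calls (714 genes under an unadjusted p of 0.05). Over genes, the deviations of same-numbered libraries had a correlation of r = 0.0489, which cannot show whether such libraries shared a batch. Aligned megabases were 1580.6 (WT) and 1635.1 (Dido1∆E16) in replicates 1, and 1120.6 and 1173.4 in replicates 2. Neutrophil and erythroid marker sums were higher in replicate 2 than in replicate 1 of both genotypes. Whether the numbers pair the samples was not tested, nor was the cause of the changes in calls. Peaks at the 10 genes were 25.0 fewer in Dido1∆E16 as reported, 11.5 to 38.5 fewer when 1 library was left out (differences of -38.5 to -11.5), and 2.0 more with the same number of best-scoring peaks. Genes with fewer peaks numbered 5 as reported (35.6% of all genes with a peak), 2 with HOMER (19.5%) and 2 with the better-scoring 50% (27.7%). With the same number of peaks there was 1 (7.16%). Leaving out WT replicate 1 gave 8 (74.65% of all genes), and leaving out WT replicate 2 gave 5 (45.0%). Leaving out Dido1∆E16 replicate 1 or 2 also gave 5 (41.6% and 44.3%). Regions of both WT libraries without a Dido1∆E16 peak numbered 15 of 26 as reported (43.1% of such regions over all genes). They were 20 of 26 with an overlap of 50% (62.4%) and 7 of 25 with HOMER (27.4%). With the better-scoring 50% they were 4 of 10 (40.3%), and with the same number 2 of 9 (13.3%). WT replicate 1, with 10249256 tags, limits the depth of the LSK comparison, and few reads limit Kit and Flt3 in pre-B cells.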
